A study of Mus musculus with 12 samples.

Results

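The chemokine receptors described here are 10 genes, *Ccr2*, *Ccr4*, *Ccr6*, *Ccr7*, *Ccr8*, *Ccr9*, *Cxcr2*, *Cxcr3*, *Cxcr4* and *Cxcr6*, chosen by name as receptors that guide T cells between tissues, out of 12809 genes in the deposited table. RNA was sequenced from CD4 and CD8 T cells sorted from the lymph nodes (LN) of female mice. There were 4 groups and 12 libraries, 3 for each group. B6 CD4 and B6 CD8 T cells came from C57BL/6 mice aged 10 weeks. FlipFlop CD4 and FlipFlop CD8 T cells came from mice aged 14 weeks whose *Cd8a* gene was altered to encode the CD4 protein and whose *Cd4* gene was altered to encode CD8αβ.1 proteins, on both copies of chromosome 6 after a crossover. FlipFlop mice still carry some DNA of strain 129 from the embryonic stem cells used for the *Cd8a* allele, and strain cannot be told apart from age in these samples. None of the 10 receptor genes lies on chromosome 6. Nothing in the labels says that replicates are separate mice, so the p-values measure the spread between libraries, which may be technical.

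Chemokines are small secreted proteins, and their receptors are membrane proteins that signal through inhibitory G proteins to turn a T cell toward the tissue that makes the ligand. Naive T cells enter LN through CCR7, while regulatory, effector and memory T cells carry other receptors that direct them to skin, gut, liver or inflamed tissue. In normal mice, CD4 T cells are mostly helper-lineage cells and CD8 T cells are mostly cytotoxic-lineage cells. The exchange of the coreceptor proteins in FlipFlop mice allows lineage and coreceptor to be separated, so each receptor was compared between CD4 and CD8 T cells within a strain, between strains within a lineage, and over all 4 groups.

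Values are CPM, read counts scaled to the depth of each library and to a factor for its composition. Reads on the listed genes numbered 26600000 to 33100000 per library, and 3 reads, the upper limit that a count of 0 allows, corresponded to 0.0857 to 0.120 CPM, which covers counting error only. The lineage factor gene *Zbtb7b*, which encodes ThPOK, measured 192 to 203 CPM in B6 CD4 and 162 to 172 CPM in FlipFlop CD8 libraries, against 1.16 to 2.79 CPM in the other two groups. Accordingly B6 CD4 and FlipFlop CD8 T cells are called helper-lineage and the other groups cytotoxic-lineage here. Of the exchanged coreceptors, *Cd4* and *Cd8a* transcripts followed the labels, with *Cd4* at 637 to 719 CPM in FlipFlop CD4 and 40.9 to 43.6 CPM in FlipFlop CD8 libraries, and *Cd8a* at 0.854 to 0.967 CPM and 138 to 159 CPM. *Cd8b1* did not, at 1640 to 1960 CPM in FlipFlop CD4 and 125 to 151 CPM in FlipFlop CD8 libraries, beside 20.7 to 28.1 CPM in B6 CD4 and 1840 to 1920 CPM in the B6 CD8 group. Summed over the 6 T cell markers looked for, values were 3310 to 4820 CPM in all libraries. The corresponding sums were 41.0 to 79.3 CPM for 8 B cell markers, 4.82 to 20.3 CPM for the 5 of 8 NK cell markers that could be analysed, and 7.82 to 30.9 CPM for 7 of 10 markers of monocytes, macrophages and dendritic cells. Of 10 neutrophil markers looked for, only *Mmp9* could be analysed.

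*Ccr8* reached the filter on low values, 1 CPM, in helper-lineage libraries alone, so its lineage and CD4 minus CD8 differences are descriptions with no test and are left out of the counts of these comparisons. The same holds for the strain differences of *Cxcr2*, which reached it in FlipFlop libraries alone. Within B6 mice, 6 of the other 9 receptors differed by coreceptor at an adjusted p-value under 0.05 in the limma fit over all tested genes, beside 25.4% of those genes. *Ccr4*, *Ccr6* and *Ccr2* were higher in CD4, and *Ccr9*, *Cxcr6* and *Cxcr3* were higher in CD8 T cells. In FlipFlop mice 5 of these 9 differed, beside 31.3% of all tested genes, with *Ccr9* and *Ccr7* higher in CD4 and *Ccr4*, *Ccr6* and *Ccr2* higher in CD8 T cells. The unpaired fit gave this count, and with the replicate number as a block 7 of 9 passed, *Cxcr4* and *Cxcr2* being added, beside 36.4% of all tested genes. By a stricter rule of more than 5-fold at an unadjusted p-value under 0.0001, 4 of 9 receptors were called in B6, beside 1.55% of genes, and 4 of 9 in FlipFlop mice, beside 2.16%. The lineage effect is the mean of B6 CD4 and FlipFlop CD8 minus the mean of B6 CD8 and FlipFlop CD4 T cells, and it is also the test of whether the B6 and FlipFlop differences differ. It was called for 5 of 9 receptors, 3 higher and 2 lower, beside 39.3% of genes, and for 4 of 9 by the stricter rule, beside 1.61%. The median size of the lineage effect was 1.73 on the log2 scale for these 9 receptors and 0.161 for all tested genes.

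**Figure D1:**
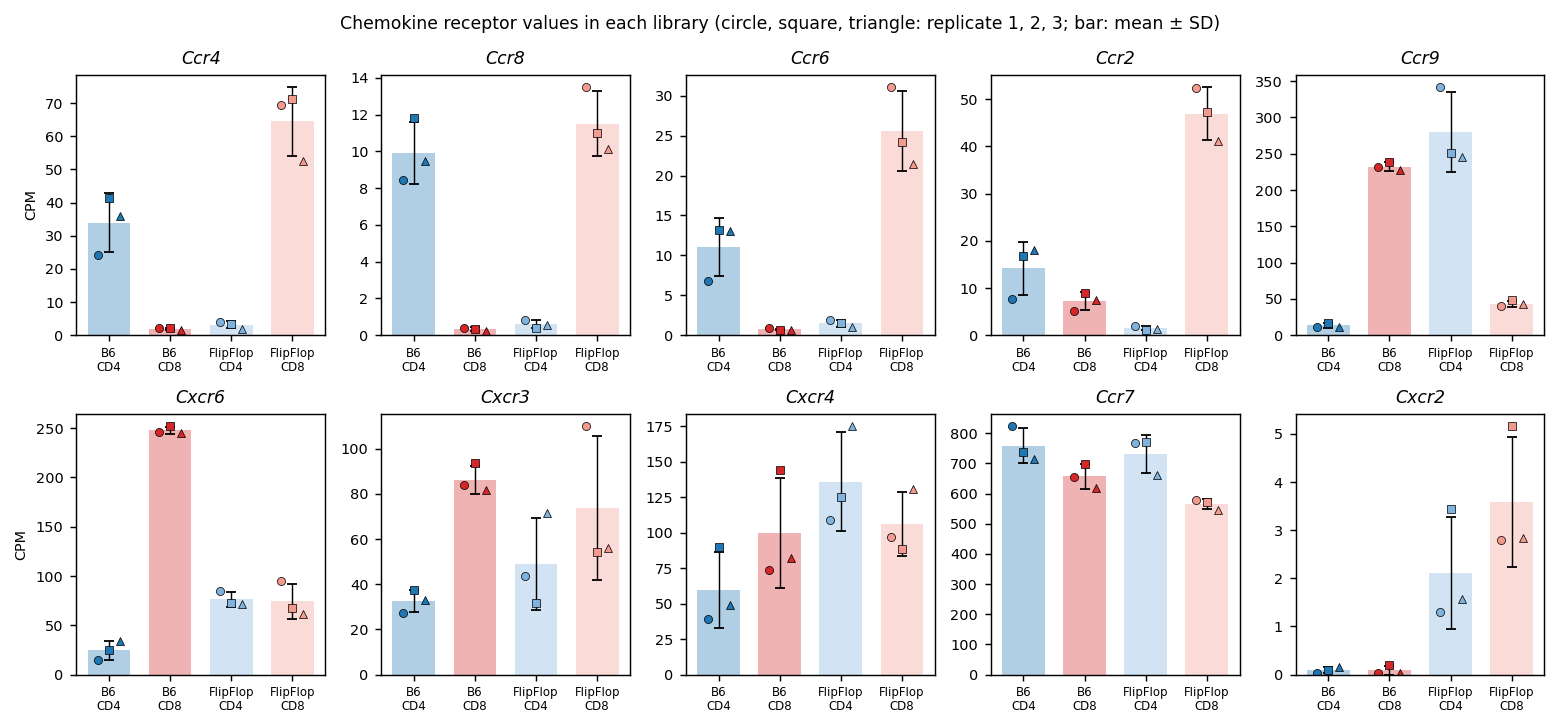
CPM of the 10 receptors in each of the 12 libraries, with linear axes from 0 (circle, square and triangle: replicates 1, 2 and 3; bars and error bars: mean ± SD, n = 3). *Ccr4*, *Ccr8* and *Ccr6* were high in B6 CD4 and FlipFlop CD8 T cells, *Ccr9* was high in the opposite groups, and *Cxcr6* was about equal in both FlipFlop groups.

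*Ccr4*, *Ccr8* and *Ccr6* were the receptors whose difference between CD4 and CD8 T cells was reversed most evenly, leaving *Cxcr4* aside. The *Cxcr4* difference passed in neither strain in the unpaired fit. CCR4 binds CCL17 and CCL22 and is used by helper and regulatory T (Treg) cells to enter skin. *Ccr4* (ENSMUSG00000047898.7, chromosome 9 from 114490316 to 114504916, GRCm38, minus strand) measured 24.2, 41.5 and 36.1 CPM in B6 CD4 and 2.10, 2.08 and 1.49 CPM in the B6 CD8 libraries. It measured 4.14, 3.52 and 2.01 CPM in FlipFlop CD4 and 69.6, 71.3 and 52.6 CPM in FlipFlop CD8 libraries. Every B6 CD4 and FlipFlop CD8 library was above every library of the other two groups. The CD4 minus CD8 difference was 3.83 (SE 0.24, adjusted p = 2.13e-07) in B6 and -4.16 (SE 0.24, adjusted p = 8.53e-08) in FlipFlop mice on the log2(CPM + 0.5) scale, which is used for all differences below and understates those of genes with few reads. These bulk values cannot tell fewer cells of a type from less RNA per cell.

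CCR8, the receptor for CCL1 and in mice CCL8, marks activated Treg cells and skin-homing cells. *Ccr8* (ENSMUSG00000042262.5, chromosome 9 from 120092114 to 120094906) was at 8.45, 11.8 and 9.50 CPM in B6 CD4 and 13.5, 11.0 and 10.1 CPM in FlipFlop CD8 libraries, and these groups overlapped. In B6 CD8 libraries it was at 0.412, 0.360 and 0.232 CPM, which stand for 11, 9 and 7 reads, and in FlipFlop CD4 libraries at 0.854, 0.399 and 0.558 CPM, which stand for 26, 11 and 15 reads. The difference was 3.63 in B6 and -3.46 in FlipFlop mice, given with no test. Ratios of mean CPM, which hold no pseudocount, were 29.6 for B6 CD4 over B6 CD8 and 19.1 for FlipFlop CD8 over FlipFlop CD4 T cells.

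CCR6, the CCL20 receptor, is carried by Th17 cells and a part of Treg cells. *Ccr6* (ENSMUSG00000040899.14, chromosome 17 from 8236043 to 8257141, plus strand) was at 6.80, 13.2 and 13.0 CPM in B6 CD4 libraries, where replicate 1 was the lowest, and at 0.861, 0.640 and 0.663 CPM in the B6 CD8 libraries. FlipFlop CD8 libraries, at 31.1, 24.2 and 21.5 CPM, were above all others, and FlipFlop CD4 libraries were at 1.97, 1.49 and 1.04 CPM. The difference was 3.18 (SE 0.25, adjusted p = 1.16e-06) in B6 and -3.72 (SE 0.25, adjusted p = 2.51e-07) in FlipFlop mice. The lineage effect was 3.99 for *Ccr4*, 3.55 for *Ccr8* and 3.45 for *Ccr6*, while their coreceptor effects, the mean of both CD4 groups minus the mean of both CD8 groups, were -0.17, 0.09 and -0.27 and did not pass the test. Without B6 CD4 replicate 1 that of *Ccr6* was -0.12. That of *Ccr4* was -0.26 without FlipFlop CD4 replicate 1 and -0.037 without FlipFlop CD4 replicate 3. For *Ccr8* it was 0.008 without FlipFlop CD4 replicate 1 and 0.156 without FlipFlop CD4 replicate 2.

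Treg markers moved with these receptors. *Foxp3*, the Treg transcription factor gene, had the most similar pattern to *Ccr4* of all tested genes, with Pearson's r = 0.995 over 12 libraries, followed by *Crmp1* at 0.994 and *Ccr6* at 0.993. These correlations describe points that fall into the same high and low groups. All 8 Treg markers looked for had a lineage effect, beside 39.3% of all tested genes, and their summed value was 434 to 534 CPM in B6 CD4, 72.5 to 77.1 CPM in the B6 CD8 group, 78.2 to 84.1 CPM in FlipFlop CD4 and 1060 to 1240 CPM in FlipFlop CD8 libraries. Mean *Foxp3* was 3.01 times as high in FlipFlop CD8 as in B6 CD4 T cells, and the ratio was 1.9 for *Ccr4*, 2.33 for *Ccr6* and 1.17 for *Ccr8*. Without correction for transcript length, *Ccr8* CPM amounted to 9.08% to 9.19% of the *Foxp3* CPM in B6 CD4 and to 3.05% to 4.43% in FlipFlop CD8 libraries. For *Ccr4* the share was 26.0% to 34.9% in B6 CD4 and 16.9% to 22.9% in FlipFlop CD8 libraries, and for *Ccr6* the shares of both groups overlapped, at 7.31% to 12.6% and 6.70% to 10.2%. In the groups with little *Foxp3* the shares were higher. In B6 CD8 and FlipFlop CD4 libraries they were 149% to 281% and 125% to 180% for *Ccr4*, 45.8% to 125% and 65.0% to 85.7% for *Ccr6*, and 25.8% to 43.7% and 19.3% to 37.1% for *Ccr8*. The part of Treg cell number in the receptor differences was not tested.

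**Figure D2:**
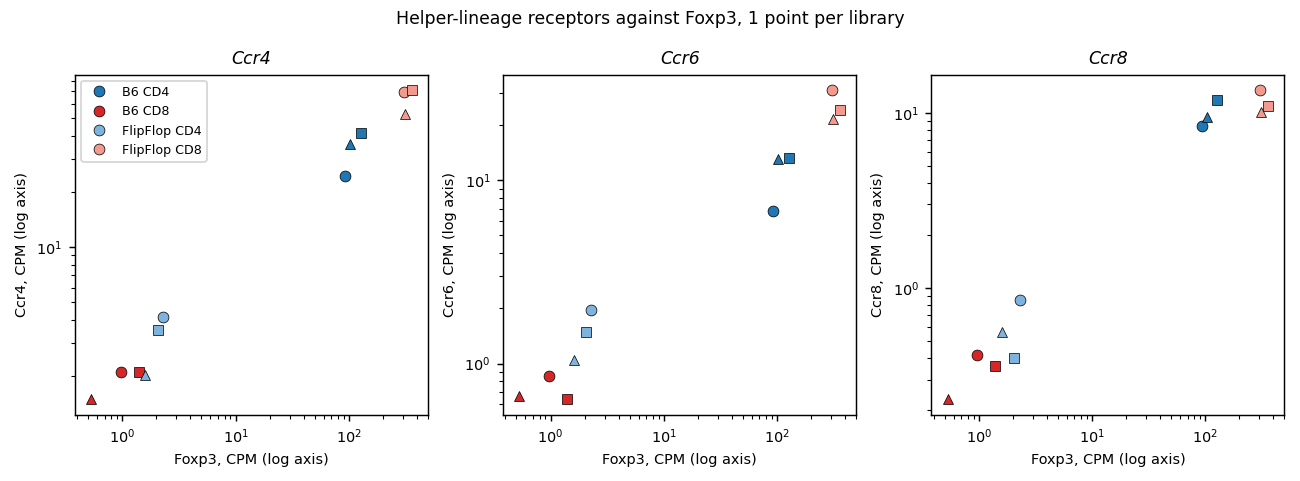
CPM of *Ccr4*, *Ccr6* and *Ccr8* against CPM of *Foxp3* on log axes, with 1 point for each of the 12 libraries (circle, square and triangle: replicates 1, 2 and 3). B6 CD4 and FlipFlop CD8 libraries lie apart from the others in all 3 panels, and *Ccr8* is at a like level in B6 CD4 and FlipFlop CD8 libraries although *Foxp3* is 3.01 times as high in the latter.

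To set the sequences before the start sites of these receptors beside their shared pattern, 250 bases upstream of the RefSeq starts were searched on GRCm38.p6 for short motifs of factor families known from T cells, on both strands. Windows were at hand for 9 of the 10 receptors, 10 windows in all since *Ccr6* has a pair of starts, and for 32851 starts over the genome. The windows of *Ccr4*, *Ccr8*, *Ccr6* and, for contrast, *Cxcr6* are printed because the first 3 reversed together and *Cxcr6* did not. They read 5′ to 3′ on the strand of the gene, with motif matches in capitals.
*Ccr4* (chr9:114496545-114496794, minus strand): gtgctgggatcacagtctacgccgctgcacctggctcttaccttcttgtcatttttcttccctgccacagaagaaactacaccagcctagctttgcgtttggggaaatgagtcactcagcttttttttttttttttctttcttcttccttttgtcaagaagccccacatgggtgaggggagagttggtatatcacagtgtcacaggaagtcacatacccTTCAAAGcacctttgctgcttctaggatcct
*Ccr8* (chr9:120091883-120092132, plus strand): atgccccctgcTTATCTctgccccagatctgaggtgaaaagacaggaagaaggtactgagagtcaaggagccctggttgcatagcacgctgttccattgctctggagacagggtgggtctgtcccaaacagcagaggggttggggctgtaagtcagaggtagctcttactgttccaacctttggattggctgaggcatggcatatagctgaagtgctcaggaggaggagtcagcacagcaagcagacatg
*Ccr6*, first start (chr17:8235793-8236042, plus strand): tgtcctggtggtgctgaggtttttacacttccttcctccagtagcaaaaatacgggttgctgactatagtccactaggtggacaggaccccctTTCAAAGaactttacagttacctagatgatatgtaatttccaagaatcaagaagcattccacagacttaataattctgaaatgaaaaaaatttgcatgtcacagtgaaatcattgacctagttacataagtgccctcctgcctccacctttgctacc
*Ccr6*, inner start (chr17:8242276-8242525, plus strand): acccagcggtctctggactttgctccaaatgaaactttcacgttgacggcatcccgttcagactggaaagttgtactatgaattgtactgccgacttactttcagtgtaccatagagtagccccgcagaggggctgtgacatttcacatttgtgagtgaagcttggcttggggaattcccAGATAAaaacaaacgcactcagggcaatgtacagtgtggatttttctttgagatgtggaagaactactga
*Cxcr6* (chr9:123806227-123806476, plus strand): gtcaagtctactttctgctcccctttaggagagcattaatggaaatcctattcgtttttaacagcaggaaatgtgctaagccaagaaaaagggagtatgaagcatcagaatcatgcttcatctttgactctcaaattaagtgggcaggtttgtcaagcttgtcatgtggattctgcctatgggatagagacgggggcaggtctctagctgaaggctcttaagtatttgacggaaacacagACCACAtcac

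The TCF1 motif CTTTGAA, whose reverse complement is TTCAAAG, lay 31 bases before the start of *Ccr4* and 157 bases before the first start of *Ccr6*, and it was in 4.46% of all windows. The GATA motif AGATAA (reverse complement TTATCT) lay 239 bases before the start of *Ccr8* and 70 bases before the inner start of *Ccr6*. It also lay 97 bases before the start of *Ccr2*, and 9.99% of all windows held it. The RUNX motif TGTGGT (reverse complement ACCACA) was 10 bases before the start of *Cxcr6* and 110 bases before that of *Cxcr3*, and 14.0% of all windows held it. The FOXO motif GTAAACA and the T-box motif GGTGTGA were in none of the receptor windows, against 3.17% and 3.33% of all windows. The matches of *Ccr2* and *Cxcr3* lie inside annotated exons of these genes in GENCODE M21, whose starts are farther upstream than the RefSeq starts, and the others lie in no annotated exon. All 250 bases of the windows of *Ccr4*, *Ccr9* and the inner start of *Ccr6* lie inside the annotated spans of these genes. The matches of *Ccr4* and of the inner *Ccr6* start are therefore within the gene in that annotation. None of the motifs overlap one another in these windows, and a match describes letters, not binding.

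CCR2, the receptor for CCL2 and its relatives, draws monocytes and effector or memory T cells to inflamed tissue. *Ccr2* (ENSMUSG00000049103.14, chromosome 9 from 124101950 to 124113557, plus strand) was at 7.70, 16.7 and 18.1 CPM in B6 CD4 and 5.17, 8.90 and 7.51 CPM in the B6 CD8 libraries, and these groups overlapped. FlipFlop CD8 libraries were at 52.4, 47.2 and 41.1 CPM and FlipFlop CD4 libraries at 1.93, 1.09 and 1.33 CPM, so that the FlipFlop groups held both the highest and the lowest values of the 4 groups. The CD4 minus CD8 difference was -4.62 (SE 0.29, adjusted p = 1.50e-07) in FlipFlop mice, the largest of any of the 10 receptors in either strain, and 0.87 (SE 0.29, adjusted p = 0.0419) in B6 mice. Compared within a lineage, *Ccr2* was higher by 1.78 (SE 0.29, adjusted p = 0.00120) in FlipFlop CD8 than in B6 CD4 T cells and lower in FlipFlop CD4 T cells than in the B6 CD8 group, with a difference of -1.97 (SE 0.29, adjusted p = 0.00106). The strain differences in the 2 lineages themselves differed, as shown by a coreceptor effect of -1.87 (SE 0.20, adjusted p = 0.000262). Markers of monocytes, macrophages and dendritic cells also moved, with sums of 20.3 to 30.9 CPM in B6 CD4, 11.2 to 24.2 CPM in the B6 CD8 group, 7.82 to 9.96 CPM in FlipFlop CD4 and 16.3 to 30.0 CPM in FlipFlop CD8 libraries. Of 5 tested, 3 had a lineage effect upward, beside 39.3% of all tested genes, with 1.42 (adjusted p = 2.38e-06) for *Itgam*, 1.09 (adjusted p = 0.00378) for *Lyz2* and 0.72 (adjusted p = 0.0239) for *Csf1r*. NK cell markers summed to 7.03 to 8.52, 9.04 to 19.3, 4.82 to 6.53 and 17.6 to 20.3 CPM in the same order of groups, and 1 of 5, *Klrb1c*, had a lineage effect, of 1.45 (adjusted p = 5.04e-06). Within B6 mice the called markers of both lists were split in direction. Of the monocyte, macrophage and dendritic cell markers, *Itgam* was higher in CD4 T cells (1.59) and *Itgax* lower (-1.65). Of the NK cell markers, *Klrb1c* was higher (0.61), while *Klrk1* and *Gzma* were lower (-1.54 and -1.35). The part of these cells in the differences of *Ccr2* and the other receptors high in the helper lineage was not tested.

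The B6 difference of *Ccr2* lost its call in 10 of 21 alternatives, with adjusted p up to 0.158. Without B6 CD4 replicate 2 or 3 it was 0.71 or 0.66 (adjusted p = 0.143 and 0.137), and without B6 CD8 replicate 1 or 3 it was 0.67 or 0.92 (adjusted p = 0.158 and 0.0786). Without FlipFlop CD4 replicate 3, or FlipFlop CD8 replicate 1, 2 or 3, the value stayed at 0.87 and the adjusted p was 0.0537, 0.0527, 0.0582 and 0.0532. *Ccr2* had whole reads in only 2 of 12 libraries, within 0.02 of a read, while the other 9 receptors had them in 11 or 12, so its values are less certain than theirs.

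CCR9, the receptor for CCL25, takes T cells to the small intestine and is also carried by cells that have recently left the thymus. *Ccr9* (ENSMUSG00000029530.16, chromosome 9 from 123678439 to 123784330, plus strand) was at 11.8, 17.2 and 12 CPM in B6 CD4 and 232, 239 and 227 CPM in the B6 CD8 libraries. It was at 342, 251 and 245 CPM in FlipFlop CD4 and 40.3, 48.1 and 42.4 CPM in FlipFlop CD8 libraries. The B6 difference was -4.06 (SE 0.15, adjusted p = 2.15e-09) and the FlipFlop difference 2.65 (SE 0.15, adjusted p = 6.95e-08). The reversal was therefore smaller in FlipFlop mice. *Ccr9* was higher in FlipFlop CD8 than in B6 CD4 T cells by 1.66 (SE 0.15, adjusted p = 2.37e-05), with no overlap of libraries. FlipFlop CD4 minus B6 CD8 T cells was 0.25 (95% interval -0.08 to 0.57, adjusted p = 0.347), and 0.094 without FlipFlop CD4 replicate 1, the highest of its group (adjusted p = 0.727). The difference between these strain differences was tested by the coreceptor effect of -0.70 (SE 0.11, adjusted p = 0.00210). *Cd8b1*, the gene for the CD8 beta chain, was most similar to *Ccr9* over the 12 libraries (Pearson's r = 0.992), followed by *Eng* (0.991) and *A930002I21Rik* (0.989). *Lztfl1*, which lies inside the annotated span of *Ccr9* on the opposite strand and averaged 12.1 to 30.6 CPM over the 4 groups, cannot be told apart from it where reads fall in both, since the counting is not stated to use strand.

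CXCR6, the receptor for CXCL16, retains effector, tissue-resident and NKT cells in liver and other organs. *Cxcr6* (ENSMUSG00000048521.8, chromosome 9 from 123806475 to 123811760, plus strand) differed between CD4 and CD8 T cells in B6 but not detectably in FlipFlop mice. It was at 14.3, 25.1 and 34.0 CPM in B6 CD4 and 246, 252 and 245 CPM in the B6 CD8 libraries. FlipFlop CD4 libraries were at 85.1, 72.3 and 71.2 CPM and FlipFlop CD8 libraries at 94.8, 67.3 and 61.5 CPM, both between the B6 groups and overlapping each other. The difference was -3.40 (SE 0.24, adjusted p = 6.11e-07) in B6 and 0.05 (95% interval -0.48 to 0.58, adjusted p = 0.900) in FlipFlop mice. The lineage effect, which tests whether these differ, was -1.73 (SE 0.17, adjusted p = 5.28e-06). Against the group of the same lineage, *Cxcr6* was higher by 1.65 (SE 0.24, adjusted p = 0.000697) in FlipFlop CD8 and lower in FlipFlop CD4 T cells, by a difference of -1.70 (SE 0.24, adjusted p = 0.000965). *Chsy1* (0.964), *Rhoq* (0.944) and *Xdh* (0.937) were the most similar genes by Pearson's r over 12 libraries.

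CXCR3 binds CXCL9 and CXCL10 and is carried by Th1 cells and by effector and memory CD8 T cells. *Cxcr3* (ENSMUSG00000050232.6, chromosome X from 101731535 to 101734269, minus strand) was at 27.4, 37.4 and 33.1 CPM in B6 CD4 and 83.8, 93.5 and 81.9 CPM in the B6 CD8 libraries, a difference of -1.40 (SE 0.29, adjusted p = 0.00323) with no overlap. In FlipFlop mice the libraries spread widely and overlapped, with 43.8, 31.6 and 71.4 CPM in CD4 and 110, 54.5 and 55.9 CPM in CD8 T cells. The FlipFlop difference was -0.59 (95% interval -1.22 to 0.05, adjusted p = 0.155). Leaving out 1 library at a time moved it between -0.90 (adjusted p = 0.0264), without FlipFlop CD4 replicate 3, the highest of its group, and -0.25 (adjusted p = 0.5075), without FlipFlop CD8 replicate 1. The lineage effect of -0.41 (adjusted p = 0.140) passed the test without FlipFlop CD4 replicate 2 (-0.54, adjusted p = 0.0465) or FlipFlop CD8 replicate 1 (-0.57, adjusted p = 0.0213), and was -0.25 without FlipFlop CD4 replicate 3 (adjusted p = 0.306). FlipFlop CD8 replicate 1 was also the highest of its group for *Ccl5*, an effector gene, at 164 CPM against 15.3 and 35.8 CPM, and for *Cxcr6*, and the part of effector cells was not tested.

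Within a lineage, *Cxcr3* was higher by 1.09 (SE 0.29, adjusted p = 0.0179) in FlipFlop CD8 than in B6 CD4 T cells. This call was lost without B6 CD4 replicate 1 (0.97, adjusted p = 0.0602) or FlipFlop CD8 replicate 1 (0.76, adjusted p = 0.0503) and with unmoderated variances (adjusted p = 0.0573). FlipFlop CD4 minus B6 CD8 T cells was -0.89 (95% interval -1.52 to -0.26, adjusted p = 0.0844), which passed without FlipFlop CD4 replicate 3 (-1.20, adjusted p = 0.0244) or FlipFlop CD8 replicate 1 (-0.89, adjusted p = 0.0365). The coreceptor effect of -0.99 (SE 0.21, adjusted p = 0.0149), lower in both CD4 groups, did not pass with unmoderated variances (adjusted p = 0.0742).

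**Figure D3:**
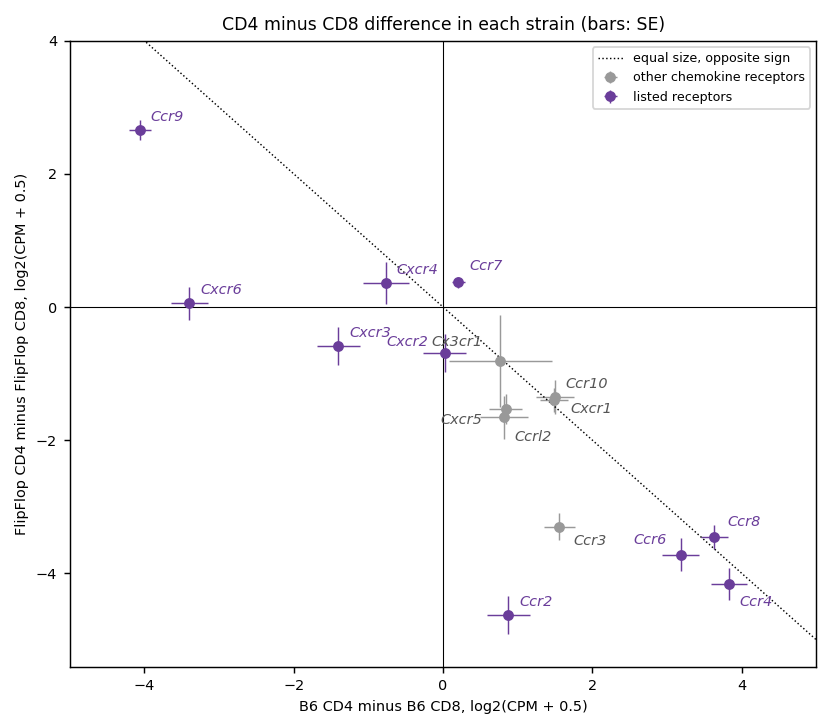
CD4 minus CD8 difference on the log2(CPM + 0.5) scale in B6 (x axis) and FlipFlop mice (y axis) for the 10 listed receptors and 6 other chemokine receptors, with SE as bars. Genes with an equal and opposite difference lie on the dotted line, near which *Ccr4*, *Ccr6* and *Ccr8* are found, while *Cxcr6* lies at 0.05 and *Ccr2* at -4.62 on the y axis.

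CCR7, the receptor for CCL19 and CCL21, brings naive and central memory T cells into LN. *Ccr7* (ENSMUSG00000037944.8, chromosome 11 from 99144196 to 99155077, minus strand) had the highest level of the 10 receptors in every group, at 383, 332, 370 and 286 CPM per kb of its principal transcript in B6 CD4, B6 CD8 and then FlipFlop CD4 and CD8 T cells. The B6 CD4 libraries were at 823, 738 and 713 CPM and the B6 CD8 libraries at 654, 699 and 618 CPM. The FlipFlop CD4 libraries were at 766, 771 and 660 CPM and the FlipFlop CD8 libraries at 577, 571 and 547 CPM. The FlipFlop CD8 libraries were below all others. Like *Cxcr3*, *Ccr7* passed the test for the coreceptor effect and not for the lineage effect, but it was higher and not lower in the CD4 groups, with a coreceptor effect of 0.29 (SE 0.06, adjusted p = 0.0152) and a lineage effect of -0.08 (95% interval -0.21 to 0.05, adjusted p = 0.313). The coreceptor call was lost without B6 CD8 replicate 3 (0.27, adjusted p = 0.0507).

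Within strains, the CD4 minus CD8 difference of *Ccr7* was 0.37 (SE 0.08, adjusted p = 0.00511) in FlipFlop and 0.21 (95% interval 0.02 to 0.39, adjusted p = 0.0992) in B6 mice. With all columns scaled to the same sum the FlipFlop value was 0.19 (adjusted p = 0.0623) and the B6 value 0.27 (adjusted p = 0.0154). *Ccr7* was lower in FlipFlop CD8 than in B6 CD4 T cells, with a difference of -0.42 (SE 0.08, adjusted p = 0.00452), and FlipFlop CD4 minus B6 CD8 T cells was 0.16 (95% interval -0.03 to 0.34, adjusted p = 0.300). The summed value of 10 memory and effector markers was 1360 to 1940 CPM in FlipFlop CD8 and 707 to 849 CPM in B6 CD4 libraries. It was 1000 to 1080 CPM in the B6 CD8 group and 649 to 677 CPM in FlipFlop CD4 libraries. The part of these markers' cells in the *Ccr7* difference was not tested.

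CXCR4, the receptor for CXCL12, holds cells in bone marrow and helps them enter LN. *Cxcr4* (ENSMUSG00000045382.6, chromosome 1 from 128588199 to 128592293, minus strand) was second in level to *Ccr7* per kb in B6 CD4 and in both FlipFlop groups. It was at 39.4, 90.0 and 49.2 CPM in B6 CD4, 73.5, 144 and 81.8 CPM in the B6 CD8 group, 109, 125 and 175 CPM in FlipFlop CD4 and 96.7, 88.8 and 131 CPM in FlipFlop CD8 libraries. Libraries of most groups overlapped, apart from B6 CD4 and FlipFlop CD4, and libraries with the same number in a strain were high or low together. The CD4 minus CD8 difference was -0.76 (95% interval -1.45 to -0.08, adjusted p = 0.0983) in B6 and 0.36 (95% interval -0.32 to 1.04, adjusted p = 0.431) in FlipFlop mice. With the replicate number as a block, which the check of the FlipFlop libraries allows, the FlipFlop difference of 0.36 had an adjusted p of 0.00688, and CD4 exceeded CD8 by a ratio of 1.13, 1.41 and 1.33 in the 3 pairs. In B6 mice, whose libraries share only a number, the ratio of CD4 over CD8 was 0.535, 0.626 and 0.601 at the same numbers.

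Single libraries decided several values of *Cxcr4*. Without B6 CD4 replicate 2 the B6 difference was -1.11 (adjusted p = 0.0160), and without B6 CD8 replicate 2 it was -0.47 (adjusted p = 0.361), the ends of its range. The FlipFlop difference of 0.36 was 0.17 without FlipFlop CD4 replicate 3 (adjusted p = 0.761) and 0.53 without FlipFlop CD8 replicate 3 (adjusted p = 0.327) in the unpaired fit. The lineage effect of -0.56 (adjusted p = 0.0624) was -0.73 (adjusted p = 0.0107) without B6 CD4 replicate 2 and -0.66 (adjusted p = 0.0462) without B6 CD8 replicate 1. FlipFlop CD8 minus B6 CD4 T cells was 0.89 (95% interval 0.21 to 1.57, adjusted p = 0.0518), 1.23 without B6 CD4 replicate 2 (adjusted p = 0.0119) and 0.89 without B6 CD8 replicate 2 (adjusted p = 0.0390). Over both cell types, *Cxcr4* was higher in FlipFlop mice by 0.69 (SE 0.22, adjusted p = 0.0344). That call was lost in 8 of 20 alternatives, and leaving out B6 CD4 replicate 1 or 3, B6 CD8 replicate 1 or 3, FlipFlop CD4 replicate 2 or 3, or FlipFlop CD8 replicate 3 gave adjusted p of 0.0692, 0.0559, 0.0764, 0.0774, 0.0564, 0.0839 and 0.0862, with values of 0.56, 0.64, 0.60, 0.63, 0.71, 0.59 and 0.60.

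CXCR2 binds CXCL1 and its relatives and is best known from neutrophils. *Cxcr2* (ENSMUSG00000026180.8, chromosome 1 from 74153989 to 74161246, plus strand) was at or near the floor of 3 reads in B6 mice and above it in every FlipFlop library. It had 1, 3 and 5 reads in B6 CD4 and 1, 5 and 1 reads in B6 CD8 libraries, or 0.0331 to 0.200 CPM. FlipFlop CD4 libraries held 40, 95 and 42 reads (1.31, 3.44 and 1.56 CPM), and FlipFlop CD8 libraries 87, 156 and 99 reads (2.80, 5.16 and 2.83 CPM). In summed reads per depth, FlipFlop CD4 was 24.4 times as high as B6 CD8 T cells and FlipFlop CD8 35.6 times as high as B6 CD4 T cells. These ratios are rough, since they rest on 7 reads in all B6 CD8 and 9 in all B6 CD4 libraries. Replicate 2 held 5 of the 7. The strain effect was 2.40, given with no test because the filter on low values fixed its direction, and the lineage effect was 0.36 (95% interval -0.09 to 0.81, adjusted p = 0.201). Since each B6 library held only 1 to 5 reads, this lineage effect rests on the FlipFlop groups. For the same reason, the lack of a B6 call for *Cxcr2* in the counts above does not show equal levels.

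Within FlipFlop mice, *Cxcr2* in CD4 minus CD8 T cells was -0.69 (95% interval -1.33 to -0.06, adjusted p = 0.0947). With replicates paired by number its adjusted p was 0.0110, and without FlipFlop CD4 replicate 2 it was -1.03 (adjusted p = 0.0114), where the lineage effect became 0.53 (adjusted p = 0.0316). Without FlipFlop CD8 replicate 2 they were -0.43 (adjusted p = 0.352) and 0.23 (adjusted p = 0.432). With all columns scaled to the same sum the FlipFlop difference was -0.84 (adjusted p = 0.0477). *Mmp9*, the neutrophil marker that could be analysed, was at 2.40 to 3.49 CPM in B6 CD4 and FlipFlop CD8 libraries and at 0.0331 to 0.262 CPM in the others. The part of neutrophils in the *Cxcr2* values was not tested. Of 12 genes tested within 500 kb of *Cxcr2*, 1 was higher in FlipFlop mice and 0 were lower, beside 31.2% of all genes with a strain effect. Around other receptors such genes were more frequent. Around *Ccr6*, 1 of 6 was higher and 4 were lower, and around *Ccr8*, 1 of 10 and 4. Around *Cxcr3*, 4 of 12 were higher and 2 lower, and around *Cxcr4*, 2 of 5 and 1. Around *Ccr7*, 5 of 16 were higher and 1 lower, and around *Ccr4*, 0 of 9 and 1. *Gm4737* (0.960), *Gm10093* (0.959) and *H2-T3* (0.957) were most similar to *Cxcr2* by Pearson's r over the 12 libraries.

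The strains were then compared within a lineage. FlipFlop CD8 minus B6 CD4 T cells passed the test for 7 of the 9 receptors other than *Cxcr2*, 6 higher and 1 lower, beside 27.6% of all tested genes. FlipFlop CD4 minus B6 CD8 T cells passed for 2 of these 9, both lower, beside 7.92%. *Cxcr2*, not tested here, differed by 2.74 in the helper and 2.07 in the cytotoxic lineage. *Ccr6* was higher by 1.22 (SE 0.25, adjusted p = 0.00455) and *Ccr4* by 0.94 (SE 0.24, adjusted p = 0.0155) in the helper lineage. The *Ccr4* call was lost without B6 CD4 replicate 1 (0.72, adjusted p = 0.0566) or FlipFlop CD8 replicate 2 (0.86, adjusted p = 0.0616). In the cytotoxic lineage, *Ccr6* differed by 0.69 (95% interval 0.15 to 1.22, adjusted p = 0.114) and *Ccr4* by 0.60 (95% interval 0.08 to 1.13, adjusted p = 0.160). These passed without B6 CD4 replicate 1 (*Ccr6*, 0.69, adjusted p = 0.0285) and without FlipFlop CD4 replicate 3 (*Ccr4*, 0.86, adjusted p = 0.0456). *Ccr8* passed in neither lineage, with 0.21 (95% interval -0.18 to 0.61, adjusted p = 0.382) in the helper and 0.39 (adjusted p = 0.223) in the cytotoxic lineage. Leaving out 1 library moved the former between 0.10, without FlipFlop CD8 replicate 1, and 0.34, without B6 CD4 replicate 2. The latter was 0.23 without FlipFlop CD4 replicate 1. No cytotoxic-lineage library reached the filter on low values for *Ccr8*. Its values were 0.232 to 0.412 CPM in the B6 CD8 group and 0.399 to 0.854 CPM in FlipFlop CD4 libraries. The pseudocount shrinks a difference between such values, and the ratio of mean CPM, FlipFlop CD4 over B6 CD8, was 1.8. The lack of a *Ccr8* call in the cytotoxic lineage, counted above, therefore does not show equal levels.

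**Figure D4:**
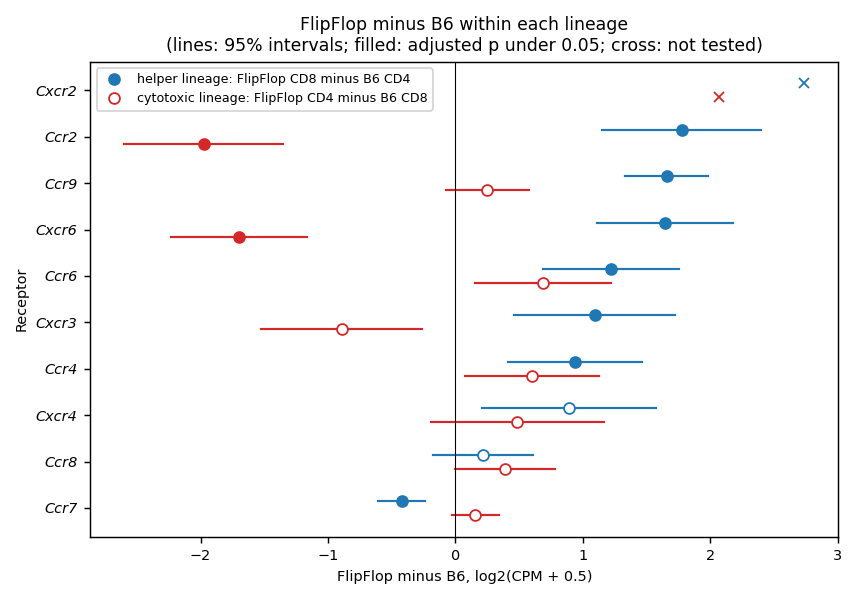
FlipFlop minus B6 difference of each receptor on the log2(CPM + 0.5) scale within the helper lineage (blue) and the cytotoxic lineage (red), as points with 95% intervals, filled where the adjusted p is under 0.05, and crosses for *Cxcr2*, which was not tested. *Cxcr2* lies at 2.74 and 2.07, while *Ccr2* and *Cxcr6* lie on opposite sides of 0.

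Whether the strain difference itself depended on the lineage is the coreceptor effect, which passed for 5 of 10 receptors, *Ccr2*, *Cxcr6*, *Cxcr3*, *Ccr9* and *Ccr7*, beside 5.49% of all tested genes. The strain effect over both lineages passed for 4 of the 9 receptors other than *Cxcr2*, namely *Ccr6*, *Ccr9*, *Ccr4* and *Cxcr4*, all of them higher in FlipFlop mice, beside 31.2%. By the stricter rule the coreceptor effect called 0 receptors, beside 0.0172% of genes, and FlipFlop CD4 minus B6 CD8 called 0, beside 0.474%. The strain effect and FlipFlop CD8 minus B6 CD4 called 0 of the 9 receptors other than *Cxcr2*, beside 0.345% and 0.405%. The sizes of the strain effect were 0.96 (SE 0.17, adjusted p = 0.00228) for *Ccr6*, 0.95 (SE 0.11, adjusted p = 8.18e-05) for *Ccr9* and 0.77 (SE 0.17, adjusted p = 0.00670) for *Ccr4*. The lineage-matched comparisons share no library with each other, but each shares libraries with the within-strain comparisons.

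Of the 10 receptor genes 5 lie on chromosome 9, and *Ccr9*, *Cxcr6* and *Ccr2* form a cluster there, with 22.1 kb between *Ccr9* and *Cxcr6* and 290.2 kb between *Cxcr6* and *Ccr2*. *Ccr9* and *Cxcr6* had lineage effects of -3.36 and -1.73, and *Ccr3* and *Ccr2* of 2.43 and 2.75. Of 13 other genes tested within 500 kb of the 3 receptors, 4 had a strain effect upward and 1 downward, beside 31.2% of all genes. The only one over 2-fold was *Lars2*, a mitochondrial leucine tRNA synthetase gene, which was at 139 to 654 CPM in FlipFlop CD8 and 1340 to 3260 CPM in all other libraries. *Fyco1*, whose span includes *Cxcr6* on the opposite strand, had a strain effect of 0.56 (adjusted p = 0.0118), and its mean stayed between 14.2 and 27.5 CPM in the 4 groups.

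**Figure D5:**
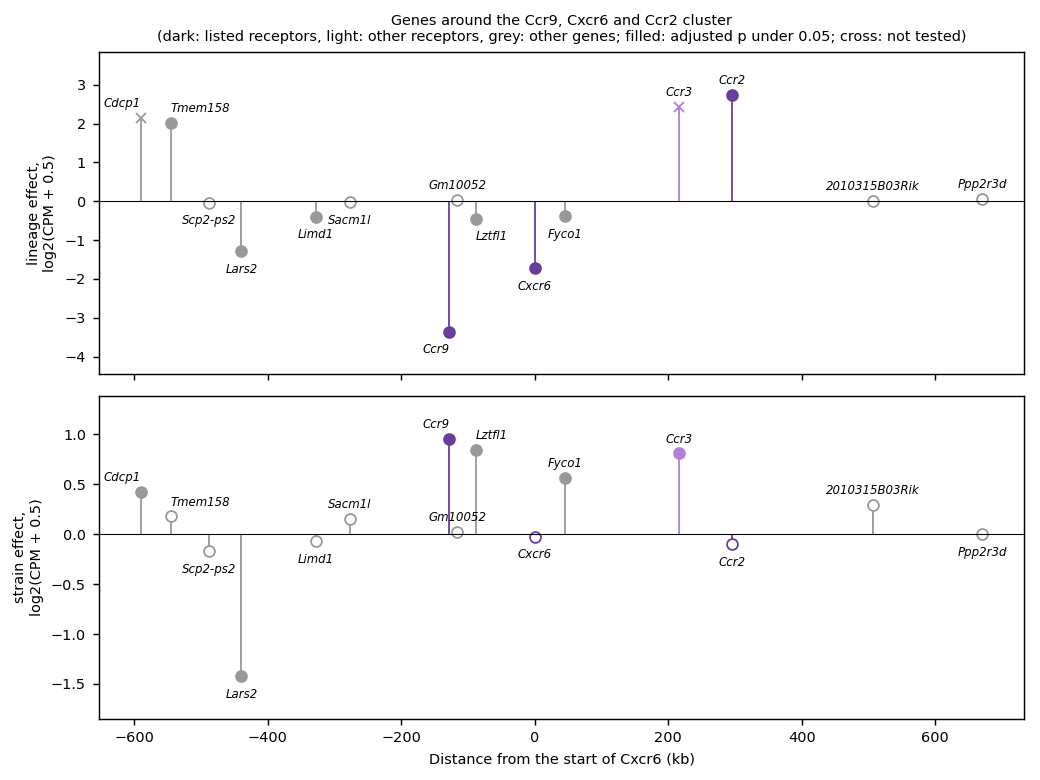
Lineage effect (top) and strain effect (bottom) on the log2(CPM + 0.5) scale of 15 tested genes around the receptor cluster on chromosome 9, placed by distance in kb from the start of *Cxcr6*, filled where the adjusted p is under 0.05, with crosses for *Ccr3* and *Cdcp1*, whose lineage effects were not tested because they reached 1 CPM in helper-lineage libraries alone. *Ccr9* and *Cxcr6* point down and *Ccr3* and *Ccr2* point up in the lineage effect, and *Cxcr6* and *Ccr2* are close to 0 in the strain effect.

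Other chemokine receptors were mostly scarce. Of 14 looked for, 9 could be analysed and 7 were tested. Of these *Ccr3* and *Cxcr1* reached 1 CPM in helper-lineage libraries alone and are given with no test. Among the other 5, 2 were higher in CD4 T cells and 0 lower in B6 mice, beside 25.4% of all tested genes, 0 were higher and 3 lower in FlipFlop mice, beside 31.3%, and the lineage effect passed upward for 3 and downward for 0, beside 39.3%. *Ccr3*, the eotaxin receptor, was at 4.21 to 4.97 CPM in FlipFlop CD8 libraries, 0.601 to 1.44 CPM in B6 CD4 libraries and at most 0.112 CPM in the rest, with a lineage effect of 2.43. *Cxcr5*, which guides follicular helper T cells to B cell follicles, was at 41.7, 70.1 and 43.6 CPM in B6 CD4, 27.0, 28.0 and 28.9 CPM in the B6 CD8 group, 27.2, 22.4 and 41.3 CPM in FlipFlop CD4 and 105, 79.8 and 76.6 CPM in FlipFlop CD8 libraries. Its lineage effect was 1.19 (SE 0.16, adjusted p = 6.60e-05). *Cxcr1*, *Ccr10* and *Ccrl2* had lineage effects of 1.44, 1.42 and 1.24.

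Of 35 chemokine genes looked for, 10 could be analysed and 7 were tested. The lineage effect passed downward for 2 and upward for 0 of them, beside 39.3% of all tested genes. *Xcl1*, the ligand of XCR1 on dendritic cells, was at 11.8 to 13.5 CPM in the B6 CD8 and 4.89 to 7.22 CPM in FlipFlop CD4 libraries and at most 2.12 CPM in the others, with a lineage effect of -2.45 (SE 0.16, adjusted p = 9.86e-08). *Ccl4*, an inflammatory chemokine gene, had a lineage effect of -1.22 (SE 0.23, adjusted p = 0.00101).

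Genes of receptor signalling, 38 tested of 41 looked for, were called about as often as all genes. The lineage effect passed for 9 upward and 7 downward, or 42.1% beside 39.3%, and the strain effect for 7 upward and 6 downward, or 34.2% beside 31.2%. Among them *Rgs1* and *Rgs16*, whose products end G protein signalling, had lineage effects of 2.68 (SE 0.13, adjusted p = 7.72e-09) and 2.04 (SE 0.13, adjusted p = 7.91e-08), followed by *Plcb3* at 1.0, *Rgs2* at 0.81 and *Grk5* at 0.38. Of 13 other migration genes, *Ltb4r1*, a leukotriene receptor gene, reached 1 CPM in helper-lineage libraries alone, with a lineage effect of 1.83 that is given with no test. Among the other 12, the lineage effect passed for 3 upward and 4 downward, beside the same 39.3%. The gut-homing receptor gene *Gpr15* had 1.78, *Ptger4* 1.07 and *Gpr183* 0.72, while *Selplg*, which encodes a selectin ligand, had -0.54. *Gpr15* differed by -3.65 (SE 0.19, adjusted p = 3.81e-08) between FlipFlop CD4 and CD8 T cells and by -0.10 (adjusted p = 0.754) between B6 CD4 and CD8 T cells.

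Markers of unconventional T cells, which often carry *Ccr2*, *Ccr6* and *Cxcr6*, also moved. Those that passed the filter through helper-lineage libraries alone, such as *Zbtb16* and *Tcrg-C1*, are not counted. Among 4 others, the lineage effect passed upward for 2 and downward for 0, beside 39.3% of all tested genes. Over all that could be analysed the sums were 18 to 22.6 CPM in B6 CD4, 11.3 to 12.9 CPM in the B6 CD8 group, 9.67 to 11.3 CPM in FlipFlop CD4 and 42.9 to 45.9 CPM in FlipFlop CD8 libraries. *Zbtb16*, which encodes PLZF, the factor of NKT and other innate-like T cells, was at 4.31, 10.2 and 9.29 CPM in FlipFlop CD8 libraries and at most 0.323 CPM in all others. Among memory and effector markers the lineage effect passed upward for 6 of 9 and downward for 0, beside the same 39.3%, with *S100a4*, *S100a6*, *Anxa2* and *Cd44* leading, and *Anxa1*, above 1 CPM in helper-lineage libraries alone, was not counted. Within B6 mice, 4 of these 9 were higher and 3 lower in CD4 T cells, beside 25.4% of all tested genes. The coreceptor effect passed for 8 of 10, all lower in the CD4 groups, beside 5.49%. These markers therefore did not follow the lineage alone. The part of these cells in the receptor differences was not tested.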

How the data were processed

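Libraries were made from RNA of sorted T cells with a low-input cDNA kit and sequenced as paired ends. The submitters' processing notes name Trimmomatic, TopHat and mm10, while the methods of the study name STAR, and the counting tool, its annotation and its use of strand are not given in the sources used here. The deposited values are a signal that the authors made as CPM scaled by a composition factor (TMM), with 1 value per gene and library. Coordinates were taken from GENCODE M21 on GRCm38, to which all 12809 identifiers matched.

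The filter kept genes that reached 1 CPM in 3 or more libraries, so that 11595 were tested and 1214 left out. All 10 receptors passed, *Cxcr2* through the FlipFlop and *Ccr8* through the helper-lineage libraries alone. A linear model with 4 group means was fitted to log2(CPM + 0.5) with limma 3.58.1 (trended variance, R 4.3.3, 8 residual degrees of freedom). All tests were two-sided, and p-values were adjusted over all tested genes by Benjamini-Hochberg, with calls under 0.05. A stricter rule, more than 5-fold at an unadjusted p under 0.0001, was used as well. Its limits are those of a heat map of the study, whose methods give the same fold with 0.05 and which does not say whether p was adjusted. The fit was tested on simulated data.

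Whole reads were recovered for 84.8% to 86.4% of values under 100 CPM, and the floor of 3 reads covers counting error only. Libraries sharing a number within FlipFlop mice deviated together (correlations 0.443, 0.271 and 0.513), so values with the replicate number as a block are given beside FlipFlop results whose call they change. The fit behind all other values has no block. The pairing rests on the data, since the labels give only the number. B6 libraries did not meet this in every pair and share only a number.

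The receptors and all gene lists were chosen with earlier results of these data known. Besides the receptors, the text names up to 5 genes of each list with the largest called lineage effect, defining markers, the 3 genes most similar to a receptor by Pearson's r, and neighbors of the chromosome 9 cluster with a called strain effect over 2-fold. *Lztfl1*, *Fyco1*, *Ccl5* and *Cdcp1* were named after their values were seen. Promoter sequences are from RefSeq (GRCm38.p6). The window of *Ccr7* and those with more than 19 exon bases are named only. Results that need certain other items are not reported here.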

Additional observations from a re-analysis of the deposited data

Results flagged for a closer look

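The CD4 minus CD8 difference was not the same in B6 and FlipFlop mice for 5 of 9 receptors, beside 39.3% of all tested genes. Each value here is the lineage effect, 0.5 times the difference between the B6 and FlipFlop differences, and its test is the interaction. It was 3.99 for *Ccr4*, 3.45 for *Ccr6*, 2.75 for *Ccr2*, -3.36 for *Ccr9* and -1.73 for *Cxcr6*. For *Ccr8* it was 3.55, and this difference was not tested, since *Ccr8* reached the filter on low values in helper-lineage libraries alone.

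The strain difference was not the same in the 2 lineages for 5 of 10 receptors, beside 5.49% of all tested genes. Each value is the coreceptor effect, 0.5 times the difference between the lineage-matched strain differences. It was -1.87 for *Ccr2*, -1.67 for *Cxcr6*, -0.99 for *Cxcr3*, -0.70 for *Ccr9* and 0.29 for *Ccr7*. Groups of 3 libraries are too small for a test of single outlying libraries.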

How the results depend on the processing

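The strain differences of *Cxcr2* and the lineage and CD4 minus CD8 differences of *Ccr8*, given with no test, are left out of all counts here. Of 34 receptor differences that passed the test, 27 kept their direction and call under every alternative tried and 0 changed direction. Of 30 that did not pass, 13 passed under at least 1 alternative. With an unadjusted p-value under 0.0001 and more than 5-fold, the number of receptors called was 0 for the coreceptor effect (beside 0.0172% of genes), 0 for the strain effect (0.345%), 0 for FlipFlop CD4 minus B6 CD8 (0.474%) and 0 for FlipFlop CD8 minus B6 CD4 T cells (0.405%). Leaving out 1 library at a time gave 5 to 6 called receptors in B6 (beside 19.4% to 27.7% of all genes in these fits), 5 to 6 in FlipFlop mice (23.5% to 38.2%), 5 to 7 for the lineage effect (34.2% to 45.2%), 4 to 5 for the coreceptor effect (3.07% to 5.23%), 3 to 4 for the strain effect (20.7% to 34.7%), 2 to 4 for FlipFlop CD4 minus B6 CD8 (4.24% to 13.6%, with 4 without FlipFlop CD4 replicate 3) and 5 to 8 for FlipFlop CD8 minus B6 CD4 T cells (13.3% to 32.4%). The causes were not tested.

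Directions changed only for uncalled values, of at most 0.122. With all columns scaled to the same sum, *Cxcr6* was -0.12 between the FlipFlop groups and 0.085 in the strain effect, *Ccr7* was 0.0397 in the lineage effect, and *Ccr2* was 0.013 in the strain effect, which was 0.0027 with a pseudocount of 1. Leaving out 1 library gave -0.0718 to 0.238 for *Cxcr6* between the FlipFlop groups, -0.0475 to 0.15 for *Cxcr2* between the B6 groups, and in the strain effect -0.19 to 0.11 for *Cxcr6*, -0.29 to 0.0093 for *Ccr2* and -0.0652 to 0.236 for *Cxcr3*.

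With the replicate number as a fixed block, 7 receptors passed in B6 (beside 30% of genes), 7 in FlipFlop mice (36.4%), 5 for the coreceptor effect (8.23%) and 7 for the lineage effect (44.5%). In the comparisons between strains the block was random (duplicateCorrelation), and 4 passed for the strain effect (20.1%), 2 for FlipFlop CD4 minus B6 CD8 (7.97%) and 8 for FlipFlop CD8 minus B6 CD4 T cells (27.5%). B6 libraries share only a number (correlations 0.184, 0.0887 and 0.352). The block gave *Cxcr4* a B6 difference of -0.76 (limma, adjusted p = 0.000135), and in the lineage effect *Cxcr4* and *Cxcr2* had adjusted p of 5.8e-05 and 0.0354. *Cxcr4* in FlipFlop CD8 minus B6 CD4 T cells had an adjusted p of 0.0337 with the random block. Beside the values given for single receptors, the block changed no other call.

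Scaling to the same sum moved the median of all genes by 0.12 in the lineage effect, -0.17 between the FlipFlop groups, 0.11 in the strain effect and 0.16 in FlipFlop CD8 minus B6 CD4 T cells. The share of higher values among called genes went from 57.3% to 69.7% in B6, from 49.0% to 20.8% in FlipFlop mice, from 50.6% to 75.6% for the lineage effect, from 31.1% to 16.2% for the coreceptor effect, from 50.5% to 81.1% for the strain effect and from 47.8% to 83.9% in FlipFlop CD8 minus B6 CD4 T cells. It made *Ccr8* pass in the strain effect (0.39, adjusted p = 0.0329) and *Cxcr4* in FlipFlop CD8 minus B6 CD4 T cells (1.06, adjusted p = 0.0355). Receptors near the floor of 3 reads, *Cxcr2* in B6 libraries first, are limited by depth.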
